A study of Homo sapiens with 3 samples.

Results

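The genes described here encode ribosome biogenesis and nucleolar factors, a module of 42 listed names of which 41 were found by gene name among the 50868 identifiers of the deposited table. The remaining name, UTP4, had no row under that symbol, and the row under its older symbol CIRH1A is described apart. The cells were AGS, an established line from a human gastric adenocarcinoma. They received SFA at 12 µM, SFE at 18 µM or, as control, the solvent DMSO for 48 h, and each condition is 1 library. Values in groups of 3 below follow the order DMSO, SFA, SFE. The labels do not spell out the names SFA and SFE, and since their doses differ they are set side by side and not contrasted.

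Ribosomes are built in the nucleolus, where RNA polymerase I transcribes the long precursor of ribosomal RNA. Small nucleolar ribonucleoproteins (snoRNPs) modify that precursor, the small subunit processome folds and cleaves it around the U3 snoRNP, and later factors finish each subunit and send it to the cytoplasm. Rapidly dividing cancer cells are known for large nucleoli and for high expression of these genes, many of which are regarded as targets of the transcription factor MYC.

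Promoter sequence is shown first because many members share a motif there. The E-box bound by MYC and its relatives is the palindrome CACGTG, which reads the same on both strands. RefSeq promoter windows (GRCh38.p14, from 250 bases before to 50 bases after the annotated start) were matched by symbol for 35 of the 42 names, giving 43 windows. CACGTG was present in 16 of these 43 windows (37.2%), each of a different gene, against 7.26% of all 35116 windows of the same length. Counted per gene, it was present for 45.7% of the matched members and for 12.9% of the 8056 matched genes that were expressed here. A match describes letters in a window and shows neither binding nor use of the site. The 5 stretches below are from the members whose E-box begins in the last 40 bases before the annotated start. They include RRP9 and UTP20, the highest and the lowest member against DMSO in the SFA library on the log2(FPKM + 1) scale used below. Each runs 5′ to 3′ along the gene's strand through the 60 bases before the start to the first transcribed base, with the E-box in capitals.

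RRP9, chr3:51941904-51941964, minus strand: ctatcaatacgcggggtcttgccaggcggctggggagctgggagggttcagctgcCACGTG
NOP10, chr15:34343136-34343196, minus strand: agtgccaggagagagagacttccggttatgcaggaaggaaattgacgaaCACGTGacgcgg
UTP20, chr12:101280045-101280105, plus strand: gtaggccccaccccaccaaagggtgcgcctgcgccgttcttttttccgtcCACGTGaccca
DDX21, chr10:68956587-68956647, plus strand: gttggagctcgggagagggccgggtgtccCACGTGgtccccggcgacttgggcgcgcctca
UTP4, chr16:69132589-69132649, plus strand: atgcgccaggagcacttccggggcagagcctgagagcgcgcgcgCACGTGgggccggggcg

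The 16 members with an E-box held 19 of them, and 16 of the 19 began within 40 bases of the start, 1 for each gene. The plot of E-box positions shows where they lie. The windows reach much further before the start than after it, so any E-box found after the start lies close to it. The share near the start was not taken over all promoters. Whether these positions are particular to the module was therefore not tested. With the first transcribed base as 0, the E-boxes of NOP10 began at −170 and −11, those of UTP18 at −89 and 4, and those of IMP4 at −203 and 15. Differences from DMSO overlapped between members with and without the motif. The 15 members with it, UTP4 not counted, had a median log2(FPKM + 1) difference of 0.04 with SFA and 0.03 with SFE. The 18 without it had medians of 0.04 and −0.03, leaving out IMP3, whose counts are described below. With SFA 9 of the 15 and 12 of the 18 were above DMSO, and with SFE 8 and 5. Of all genes 51.4% were above it with SFA and 55.2% with SFE. These signs depend on the scaling. Of the 40 members without IMP3, 18 were above DMSO with SFE as scaled here, but 9 with either other scaling used below. The shares of all genes at those 2 scalings were 44.6% and 42.2%. The range was wider with the motif, −0.33 to 0.44 against −0.20 to 0.22 with SFA and −0.35 to 0.40 against −0.27 to 0.16 with SFE.

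**Figure D1:**
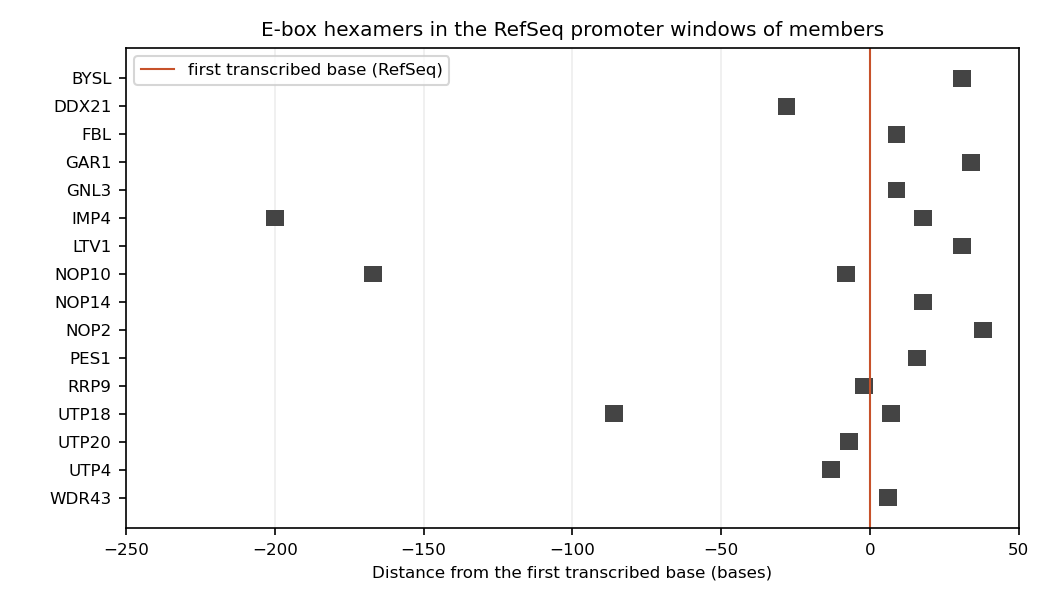
E-box hexamers in the promoter windows of the 16 members that hold one, with distance from the annotated first transcribed base in bases on the x axis and 1 row per gene. Each block is 1 hexamer of 6 bases, and every gene has 1 that begins within 40 bases of the start.

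The libraries held 18767232, 13639844 and 13644676 counts in all. The 41 members had between 17 and 10510 counts with DMSO, with a median of 1907. Of the simple epithelial markers, KRT8, KRT18, KRT7 and CLDN4 passed 1 FPKM (the deposited expression value, scaled to gene length and library size) in at least 1 library, while EPCAM and KRT19 reached at most 0.336 and 0.162 FPKM. The 6 epithelial markers summed to 1070 FPKM with DMSO and 679 FPKM with each compound. KRT8 and KRT18 were lower in the treated libraries, whereas KRT7 (118, 161 and 151 FPKM) and CLDN4 (1.48, 1.97 and 1.72 FPKM) were higher. The 5 fibroblast markers summed to 26.3, 10.1 and 12.6 FPKM with DMSO, SFA and SFE, mostly from collagens COL1A1 and COL3A1 and from PDGFRB, with DCN under 1 FPKM and COL1A2 at 0 in both treated libraries. No endothelial or leukocyte marker reached 1 FPKM, and KDR and CD3E were at 0 throughout. The part of these marker shifts in the results was not tested, and in bulk RNA fewer cells of a type cannot be told apart from less RNA per cell. With 1 library per condition no difference has a replicate check, and the 95% intervals given below cover counting error only.

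The module stayed near its DMSO level in both treated libraries. Members together took 0.531% of all counts with DMSO (95% Clopper-Pearson interval 0.528% to 0.535%), 0.554% with SFA (0.550% to 0.558%) and 0.539% with SFE (0.535% to 0.543%). Without IMP3 the share with SFE was 0.530% (0.526% to 0.534%). Limits of 2-fold and 1.3-fold were set on the log2(FPKM + 1) scale, which understates the change of low genes. Of the 11680 genes that reached 1 FPKM in any library, 1.36% lay 2-fold or more above DMSO and 1.34% lay 2-fold or more below it with SFA. None of the 41 members was past 2-fold in either direction with SFA. With SFE the shares over all genes were 1.37% higher and 1.01% lower, and of the members IMP3 alone was past 2-fold, higher, and none was lower.

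At 1.3-fold, 11.9% of all genes were higher and 10.3% lower with SFA, and of the members RRP9 alone was higher and none was lower. With SFE 11.9% of all genes were higher and 7.86% lower, whereas IMP3 and NOP10 were higher and no member was lower. That count depends on the scaling. With median-ratio size factors in place of library totals, IMP3 alone was higher with SFE, and NOP58, UTP18, UTP20 and DDX21 were past 1.3-fold lower. These 4 are 9.76% of the members, near the 10.1% of all genes that were lower at that scaling. TMM factors gave the same names for SFE, and with SFA they left no member higher and UTP20 lower. Over all genes past 1.3-fold with SFE, the share on the higher side moved from 60.3% to 47.6% with median-ratio factors and 44.5% with TMM factors, and past 2-fold from 57.6% to 48.0% and 45.7%. With SFA TMM factors moved it from 53.7% to 43.6% at 1.3-fold. The median log2(FPKM + 1) difference of the members was 0.04 with SFA and −0.00 with SFE, beside 0.01 and 0.03 over all genes. With TMM factors it was −0.02 with SFA and −0.09 with SFE, beside −0.04 and −0.05 over all genes. IMP3 passed the filter on low values only through the SFE library, where it was high. The other 40 members were at 1 FPKM or more in every library.

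The depth resolves smaller differences than these limits. The fold of a single member is the ratio of its shares of all counts in the libraries compared. With SFA this ratio's counting interval lay above 1 for 15 members and below 1 for 10, against 27.6% and 26.8% of all genes. With SFE it lay above 1 for 9 and below 1 for 9, against 28.9% and 22.8% of all genes, and with TMM factors for 4 and 18, against 19.6% and 33.4% of all genes at that scaling. Leaving out IMP3, the folds ran from 0.786 to 1.36 with SFA and from 0.760 to 1.32 with SFE. The plot of ratios by member shows them in role order. Both intervals lay above 1 for NOP10, TCOF1, RRP9, RRP12, BOP1, NOP2 and PES1, and both lay below 1 for NOP58, NCL, NPM1, UTP18, UTP20, WDR75 and DDX21. Of the higher ones, NOP10, RRP9 and RRP12 also had an interval above 1 with SFE under TMM factors, while TCOF1, BOP1, NOP2 and PES1 did not, nor did WDR12, which was above 1 with SFE alone. Both comparisons use the same DMSO library.

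**Figure D2:**
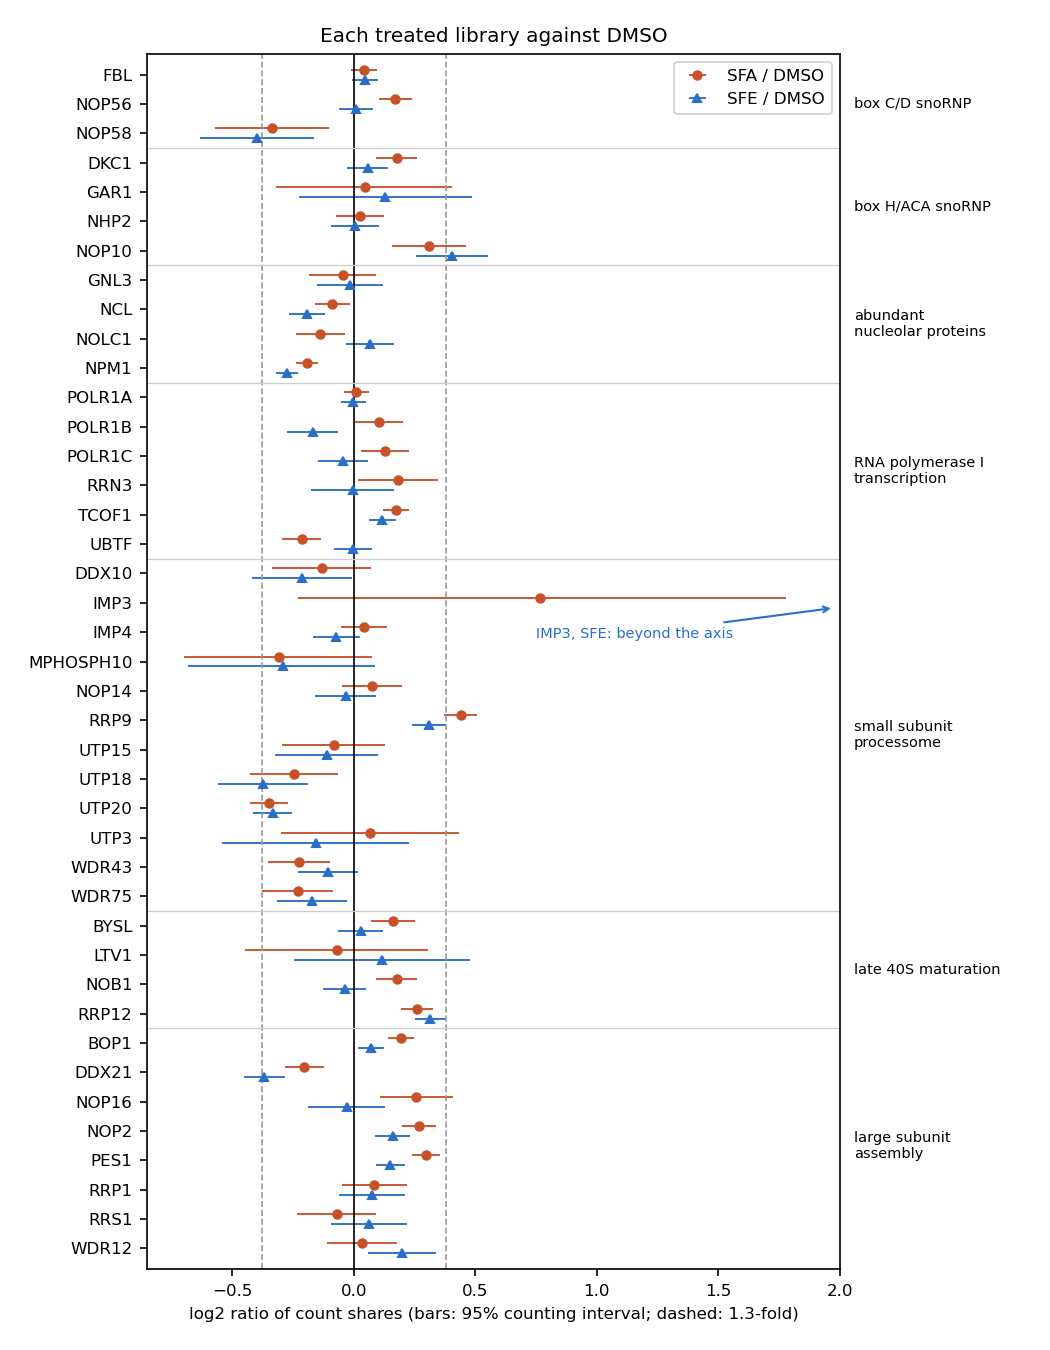
Ratio of each member's share of counts in the SFA library (circles) and the SFE library (triangles) to its share in the DMSO library, on a log2 axis, with 95% counting intervals as bars and 1.3-fold as dashed lines. Most members lie inside the dashed lines, and IMP3 with SFE (102-fold) lies beyond the axis.

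RNA polymerase I genes were measured through 6 members. POLR1A, the largest subunit of the enzyme, had 7019, 5139 and 5098 counts. Scaled to library totals these were level: the fold was 1.01 with SFA (0.972 to 1.04) and 0.999 with SFE (0.963 to 1.04). POLR1B, the second-largest subunit, stood at 5.83, 6.28 and 5.19 FPKM, slightly above DMSO with SFA (1.08-fold, 1.0 to 1.15), where the interval spans 1 with either other scaling, and below it with SFE (0.890, 0.827 to 0.957). POLR1C, a subunit shared with RNA polymerase III, stood at 15.2, 16.6 and 14.8 FPKM, highest with SFA. RRN3, the initiation factor that brings the polymerase to the promoter, stood at 6.16, 6.99 and 6.14 FPKM. TCOF1, which encodes treacle, had 5909, 4844 and 4660 counts and was higher with both compounds (1.13-fold, 1.09 to 1.17, and 1.08-fold, 1.04 to 1.13). UBTF, the protein that coats the ribosomal genes, was the 1 gene of the 6 that was lower with SFA: it had 3140, 1967 and 2280 counts, a fold of 0.862 with SFA (0.814 to 0.912) and 0.999 with SFE (0.946 to 1.05). With SFA 5 of the 6 lay above DMSO, and 4 of 6 with either other scaling. The shares over all genes were 51.4% at library totals, 47.5% with median-ratio and 44.0% with TMM factors. With SFE 5 of the 6 lay below DMSO under each scaling, against 44.8%, 55.3% and 57.8% of all genes in the same order. At library-total scaling the interval lay below 1 for POLR1B alone. With either other scaling it lay below 1 for POLR1A, POLR1B, POLR1C and UBTF with SFE, and above 1 for TCOF1 alone with SFA.

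Box C/D snoRNPs guide ribose methylation of ribosomal RNA. FBL, the methyltransferase fibrillarin, had 6549, 4905 and 4915 counts, which is 79.6, 82.0 and 82.2 FPKM, and its folds were 1.03 with SFA (0.993 to 1.07) and 1.03 with SFE (0.995 to 1.07). Its core partners NOP56 and NOP58 differed from each other. NOP56 stood at 14.7, 16.5 and 14.8 FPKM, higher with SFA (1.13-fold, 1.07 to 1.18) and level with SFE at library-total scaling. With TMM factors its interval with SFE lay below 1. NOP58 had 420, 242 and 232 counts and was lower in both treated libraries: 1.26-fold with SFA (1.07 to 1.48) and 1.32-fold with SFE (1.12 to 1.55). At a pseudocount of 0.1 or 0.01 NOP58 passed 1.3-fold lower with SFE.

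Box H/ACA snoRNPs convert uridine to pseudouridine and the same proteins bind telomerase RNA. NOP10, the smallest of the 4 proteins, had 758, 683 and 729 counts, which is 40.8, 50.6 and 54.0 FPKM. Both treated libraries were above DMSO, by 1.24-fold with SFA (1.12 to 1.38) and 1.32-fold with SFE (1.19 to 1.47). DKC1, the pseudouridine synthase dyskerin, stood at 17.4, 19.7 and 18.1 FPKM, higher with SFA (1.13-fold, 1.07 to 1.2) and by less with SFE (1.04-fold, 0.981 to 1.10). NHP2 stood at 32.8, 33.4 and 32.9 FPKM, and GAR1, with 152, 114 and 121 counts, at 2.96, 3.05 and 3.24 FPKM. All 4 were above DMSO in both libraries at library-total scaling, but with TMM factors only 2 of the 4 were above it in each. Over all genes 51.4% were above it with SFA and 55.2% with SFE, or 44.0% and 42.2% with TMM factors. NHP2 shares 27.4% of its exon bases with RMND5B on the other strand, and since strand use in counting was not given, its counts are uncertain. TERC, the telomerase RNA that this complex binds, had 2790, 6 and 5 counts. It was singled out after its values were seen, overlaps another gene and is therefore uncertain as well.

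Abundant nucleolar proteins were covered by 4 genes, whose median log2(FPKM + 1) difference with SFA was −0.10 at library-total scaling and −0.16 with TMM factors. With SFA the interval lay below 1 for NPM1, NCL and NOLC1, and none of the 4 passed 1.3-fold lower. NPM1, the chaperone nucleophosmin of the outer nucleolus, had the most counts of all members in every library: 10510, 6688 and 6319, which is 85.1, 74.5 and 70.4 FPKM. It was lower with both compounds, by 1.14-fold with SFA (1.11 to 1.18) and 1.21-fold with SFE (1.17 to 1.25). The 45 named NPM1 pseudogenes held 106, 95 and 86 counts in all, few beside the gene itself. NCL, nucleolin, stood at 20.2, 19.0 and 17.7 FPKM and was lower with SFE (1.14-fold, 1.09 to 1.2) and by less with SFA (1.06-fold, 1.01 to 1.12). NOLC1, a chaperone of snoRNPs, was lower with SFA (0.909, 0.848 to 0.975) but not with SFE (1.05, 0.98 to 1.12). GNL3, the GTPase nucleostemin, was level at 9.95, 9.64 and 9.85 FPKM. With SFE 3 of the 4 were lower, and all 4 with either other scaling. Of all genes 44.8% were lower with SFE, or 55.3% with median-ratio and 57.8% with TMM factors.

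**Figure D3:**
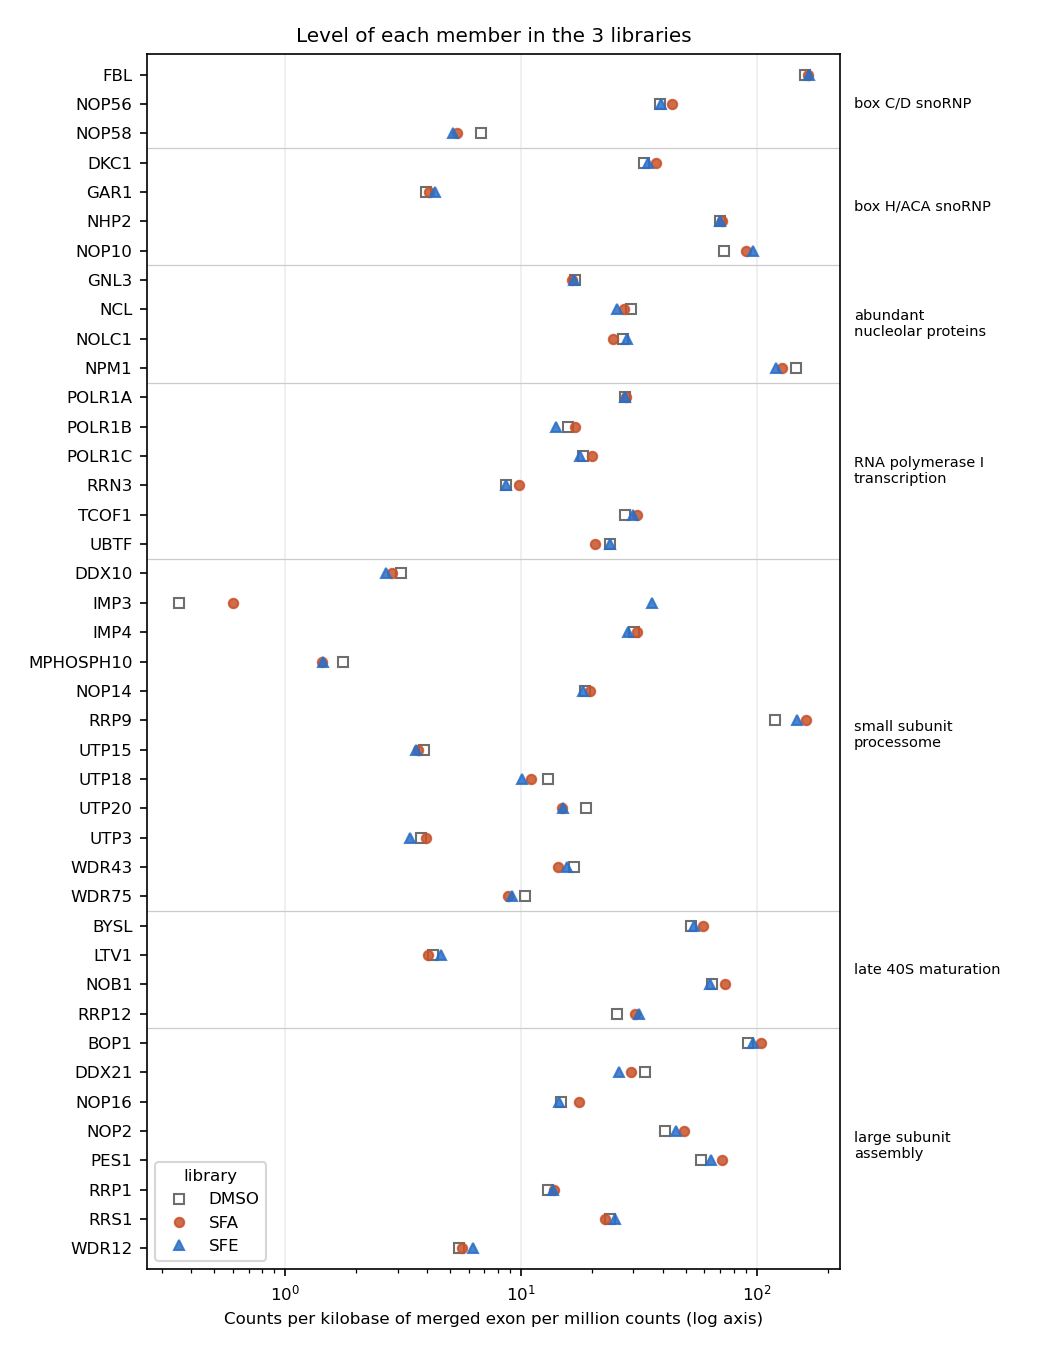
Level of each member in the DMSO (open squares), SFA (circles) and SFE (triangles) libraries, as CPM (counts scaled to library size) per kilobase of merged exon on a log axis. FBL, NPM1 and RRP9 lie at 119 or above, MPHOSPH10 lies below 2, and the 3 symbols of a gene lie close together for every member but IMP3.

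The small subunit processome holds the widest spread. RRP9, the protein particular to the U3 snoRNP, had 3524, 3473 and 3177 counts, which is 119, 161 and 148 FPKM. It was higher in both treated libraries, by 1.36-fold with SFA (1.29 to 1.42) and 1.24-fold with SFE (1.18 to 1.3), and it overlaps no other listed gene. Its log2(FPKM + 1) difference with SFA, 0.44, lies just past the 1.3-fold limit of 0.38. With SFA the nearest member inside that limit was NOP10 at 0.30 on the higher side and UTP20 at −0.33 on the lower side.

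UTP20, a large scaffold protein of the processome, had 3561, 2034 and 2055 counts. Both treated libraries lay below DMSO by similar amounts, 1.27-fold with SFA (1.2 to 1.34) and 1.26-fold with SFE (1.19 to 1.33). UTP18, a WD-repeat subunit of the UTP-B complex, had 667, 409 and 375 counts and was lower by 1.19-fold with SFA (1.05 to 1.34) and 1.29-fold with SFE (1.14 to 1.47). The UTP-A proteins WDR43, WDR75 and UTP15 bind the precursor while it is being transcribed. WDR43 stood at 15.2, 13.0 and 14.1 FPKM, with an interval below 1 with SFA (0.857, 0.784 to 0.936), and WDR75 at 7.76, 6.61 and 6.89 FPKM, with both intervals below 1. UTP15 stood at 2.37, 2.24 and 2.19 FPKM with both intervals spanning 1. The row named CIRH1A, which carries the identifier of UTP4, a further UTP-A protein, had 3792, 2852 and 2788 counts. At library-total scaling it was level (1.03-fold, 0.985 to 1.09, and 1.01-fold, 0.963 to 1.06). Other members of the processome were NOP14 at 11.1, 11.7 and 10.8 FPKM, UTP3 at 3.78, 3.96 and 3.39, and the helicase DDX10 at 2.53, 2.31 and 2.19. DDX10 was lower with SFE (0.863, 0.748 to 0.996). Leaving out IMP3, 7 of the 11 processome members were lower with SFA and 10 of 11 with SFE, and their medians were −0.09 and −0.12 on the log2(FPKM + 1) scale. Over all genes 48.6% were lower with SFA and 44.8% with SFE. The interval lay below 1 for 4 of the 11 with each compound, against 26.8% and 22.8% of all genes. With SFE it lay below 1 for 6 with median-ratio and 8 with TMM factors, against 31.1% and 33.4% of all genes. The 30 other processome genes of the pathway lists described below leaned the other way at library-total scaling. Of these, 19 were higher and 11 lower with SFA (median 0.08), and 20 were higher and 10 lower with SFE (median 0.11). Over all genes 51.4% were higher with SFA and 55.2% with SFE. TMM factors shift every gene by −0.06 with SFA and −0.10 with SFE on the log2 scale, about the size of these medians.

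IMP3, IMP4 and MPHOSPH10 encode a complex that joins U3 to the precursor, and their counts did not move together. MPHOSPH10 had 155, 91 and 92 counts, so that its intervals span 1 (0.617 to 1.05 with SFA and 0.624 to 1.06 with SFE). With TMM factors the interval of MPHOSPH10 with SFE lay below 1. IMP4 was level at library-total scaling, at 12.1, 12.4 and 11.5 FPKM, but its interval with SFE lay below 1 with either other scaling. IMP3 had 17, 21 and 1264 counts, which is 0.237, 0.403 and 24.2 FPKM. That is 102-fold more with SFE than with DMSO (63.6 to 176), while with SFA the interval spans 1 (1.70-fold, 0.854 to 3.43). IMP3 lies on the minus strand at chr15:75639085-75648706 (hg38), a span that holds other genes on the plus strand. Of its merged exon bases 22.0% are shared with CTD-2026K11.4, annotated as antisense, and 31.2% with SNX33, a sorting nexin gene. CTD-2026K11.4 had 1379, 1346 and 1307 counts and SNX33 had 2437, 1723 and 1887. Scaled to library totals, the folds of CTD-2026K11.4 were 1.34 with SFA (1.24 to 1.45) and 1.3 with SFE (1.21 to 1.41). Those of SNX33 were 0.973 (0.914 to 1.04) and 1.07 (1.0 to 1.13). Whether read assignment between these genes and IMP3 differed between libraries was not tested. The nearby gene PTPN9, a phosphatase that does not overlap IMP3, had 845, 797 and 1581 counts. SNUPN, which lies between them, had 680, 512 and 528. At library-total scaling PTPN9 was higher with SFA (1.3-fold, 1.18 to 1.43) and with SFE (2.57-fold, 2.37 to 2.8). The folds of SNUPN were 1.04 with SFA and 1.07 with SFE, and both intervals span 1. These neighbours were chosen after their values were seen. The sources used here do not name the counting tool or its use of strand, so the counts of IMP3 are uncertain in all libraries.

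**Figure D4:**
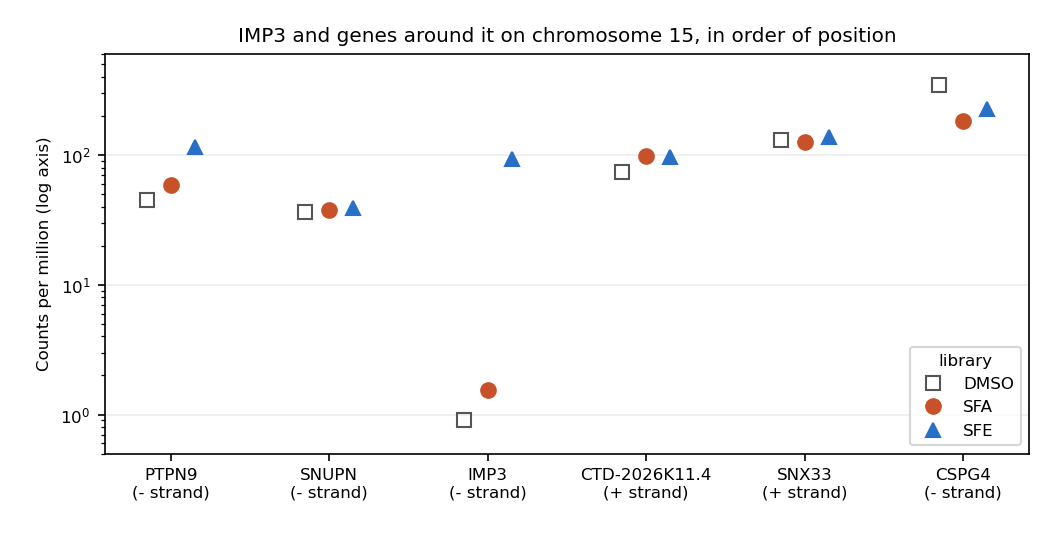
CPM (counts scaled to library size) on a log axis in the DMSO (squares), SFA (circles) and SFE (triangles) libraries for IMP3 and genes around it, in order of position, CSPG4 among them. IMP3 lies near 1 with DMSO and SFA and at 92.6 with SFE, while CTD-2026K11.4 and SNX33, which overlap it, lie between 73.5 and 138 in every library.

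Late steps of small subunit maturation were covered by 4 genes. RRP12, which helps to export the precursor particles, had 4092, 3561 and 3701 counts. Both treated libraries were higher, by 1.2-fold with SFA (1.14 to 1.25) and 1.24-fold with SFE (1.19 to 1.3). NOB1, the endonuclease that trims the end of the small subunit RNA, was the most abundant of the 4 per length. It had 2576, 2116 and 1825 counts, which is 40.3, 45.5 and 39.2 FPKM, higher with SFA (1.13-fold, 1.07 to 1.2). With SFE its interval spanned 1 at library-total scaling (0.974, 0.917 to 1.04) but lay below 1 with either other scaling. BYSL, or bystin, was also highest with SFA, at 26.0, 29.1 and 26.6 FPKM. LTV1, with 147, 102 and 116 counts, had intervals that span 1. With SFE 3 of the 4 were above DMSO, but 2 of 4 with either other scaling. Of all genes 55.2% were above it, or 44.6% with median-ratio and 42.2% with TMM factors.

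Large subunit assembly was covered by 8 genes. PES1, BOP1 and WDR12 form the PeBoW complex, which is needed to process the large subunit RNA. PES1 had 4944, 4418 and 3991 counts and was higher with SFA (1.23-fold, 1.18 to 1.28) and with SFE (1.11-fold, 1.06 to 1.16). BOP1 had 6381, 5303 and 4873 counts, which is 69.7, 79.7 and 73.2 FPKM, and was higher by 1.14-fold with SFA (1.10 to 1.19) and 1.05-fold with SFE (1.01 to 1.09). WDR12 stood at 4.66, 4.77 and 5.34 FPKM, and its interval lay above 1 with SFE (1.15-fold, 1.04 to 1.26) but spans 1 with either other scaling. NOP2, an RNA methyltransferase, had 3583, 3136 and 2910 counts and was higher with both compounds (1.2-fold, 1.15 to 1.26, and 1.12-fold, 1.06 to 1.17), and NOP16 was higher with SFA (1.2-fold, 1.08 to 1.33). The SFE intervals of PES1 and NOP2 spanned 1 with TMM factors, and that of BOP1 with either other scaling. DDX21, a helicase of the nucleolus, went the other way. It had 3174, 2004 and 1789 counts and was lower by 1.15-fold with SFA (1.09 to 1.22) and 1.29-fold with SFE (1.22 to 1.37). RRP1, a large subunit processing factor, stood at 9.43, 10.0 and 9.94 FPKM, and RRS1, which helps to bring the smallest ribosomal RNA into the particle, at 23.9, 22.8 and 25 FPKM. Of the 8 genes 6 were above DMSO with SFE, but 3 of 8 with either other scaling. The all-gene shares were 55.2%, 44.6% with median-ratio and 42.2% with TMM factors.

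Levels between genes need care in this table. The length behind the deposited FPKM equals, within 0.1%, the summed length of all distinct GENCODE 29 exons of the gene for 87.9% of 11572 genes and for 35 of the 41 members, so overlapping exons are counted repeatedly. It exceeds the merged exon length by a median factor of 1.5 among members and by 2.99 for NOP2. Folds between libraries are not affected, since each gene keeps 1 length. In CPM (counts scaled to library size) per kilobase of merged exon, the level with DMSO was 161 for FBL, 38.8 for NOP56 and 6.78 for NOP58, proteins of 1 complex. Within the H/ACA complex it was 72.9 for NOP10, 69.8 for NHP2, 33.2 for DKC1 and 3.96 for GAR1, and in PeBoW 91.5 for BOP1, 57.8 for PES1 and 5.47 for WDR12. The treated libraries had the same order within each of these complexes.

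Transcript base composition moved with the differences. Taking GC content from the longest GENCODE 29 transcript, members ran from 37.7% (WDR75) to 65.2% (BOP1). Of the 22 members under 50% GC, IMP3 left out, 14 were lower with SFA and 16 with SFE, and their median log2(FPKM + 1) differences were −0.07 and −0.11. Of the 18 at 50% or more, 16 were higher with SFA and 12 with SFE, with medians of 0.16 and 0.04. Over all genes the medians were −0.04 and −0.02 under 50% GC and 0.06 and 0.07 at or above it. Of all genes of any GC content, 48.6% were lower and 51.4% higher with SFA, and 44.8% and 55.2% with SFE. These shares were not taken by GC class. Of the 40 members without IMP3, 22 were lower with SFE at library totals, but 31 with either other scaling. All-gene shares there were 55.3% with median-ratio and 57.8% with TMM factors. Across the 40 genes, Spearman's rho between GC content and the difference was 0.63 with SFA and 0.60 with SFE, against 0.18 and 0.19 across 11587 genes. These points share the same 3 libraries and the DMSO library enters both sets. Centred on the median of genes with like GC content, RRP9 stood at 0.37 with SFA, just inside the 1.3-fold limit, and at 0.25 with SFE. NOP10 stood at 0.27 and 0.33, UTP20 at −0.29 and −0.31, and DDX21 at −0.11 and −0.29. What part base composition has in the results was not tested further.

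**Figure D5:**
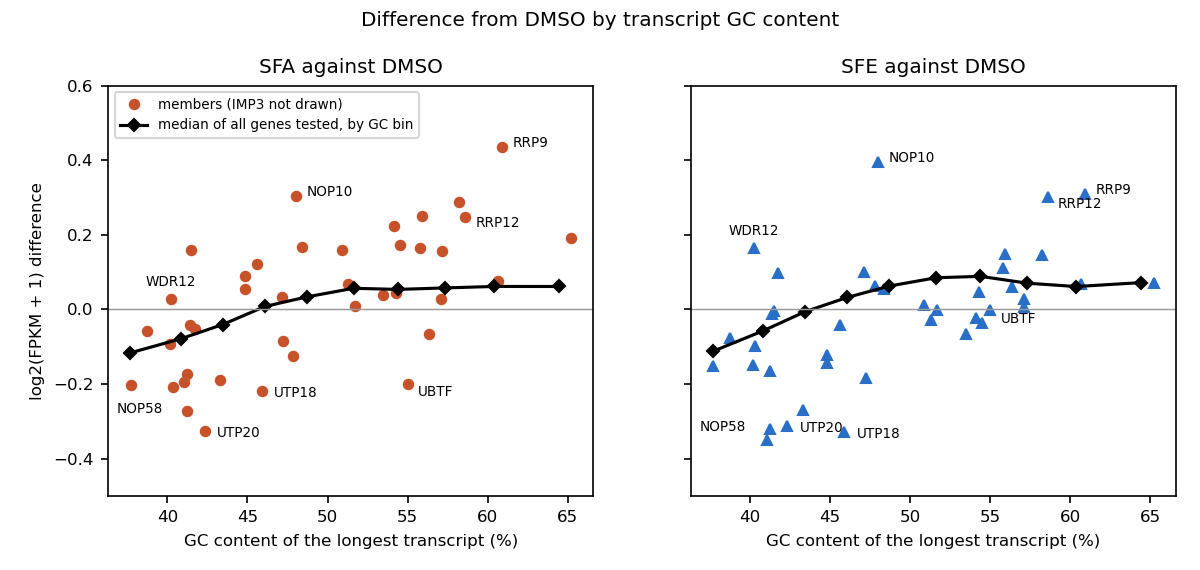
Difference of log2(FPKM + 1) from DMSO against GC content of the longest transcript, for 40 members (IMP3 is not drawn), with SFA on the left and SFE on the right. Diamonds are medians of all genes tested in 10 bins of GC content, which run from −0.12 to 0.06 with SFA and from −0.11 to 0.09 with SFE, and members at low GC lie mostly below 0.

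Other genes of the pathway, were taken from 7 lists chosen by role. Of 138 found, 133 passed the filter and none was past 2-fold with either compound. At 1.3-fold 7 were higher and 3 lower with SFA, against 11.9% and 10.3% of all genes. With SFE 3 were higher and 1 lower, against 11.9% and 7.86%. Their medians were 0.04 and 0.06, beside 0.01 and 0.03 over all genes. These values are at library-total scaling. Median-ratio and TMM factors shift every gene by −0.03 and −0.06 with SFA and by −0.08 and −0.10 with SFE on the log2 scale. Among large subunit factors EBNA1BP2 stood at 15.6, 22.2 and 20.0 FPKM, above DMSO in both treated libraries, and MDN1, the giant remodelling ATPase, at 15.1, 10.7 and 12.7 FPKM, below it in both. The exosome subunit EXOSC5 stood at 7.44, 10.9 and 11.2 FPKM, 1.47-fold higher with SFA (1.28 to 1.69) and 1.51-fold with SFE (1.31 to 1.73). The methyltransferase EMG1 stood at 14.1, 19.6 and 18.8 FPKM, and TSR3, which modifies the small subunit RNA, at 33.9, 47.4 and 39.7 FPKM. All 5 of these genes overlap another listed gene. MYC stood at 70.4, 59.8 and 69.2 FPKM, lower with SFA (0.85, 0.825 to 0.875). With SFE its interval spanned 1 at library-total scaling (0.983, 0.955 to 1.01). The shifts of −0.08 and −0.10 named above would take that SFE interval below 1.

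Of the 41 members, 18 overlap another listed gene, and for 8 of these an overlapping gene had 100 or more counts with DMSO. These 8 are IMP3, NHP2, NOP14, NOP16, POLR1C, IMP4, GNL3 and RRN3. Their values are uncertain for that reason where exon bases are shared, most for IMP3 and NHP2. RRN3 shares no exon bases with the overlapping PDXDC1, and GNL3 shares 0.15% of its own with GLT8D1. RRN3 also has 3 named pseudogenes with 211, 157 and 143 counts. Without overlapping genes, 23 members were left, of which RRP9 was past 1.3-fold with SFA and NOP10 with SFE.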

How the data were processed

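RNA of AGS cells was sequenced after rRNA removal, per the labels' protocols, with 1 library each for DMSO, SFA and SFE. The submitters' processing notes name HISAT2 2.0.4, StringTie 1.2.3 and hg38, without roles or order. Which tool counted the reads, and with which strand setting, is not named there. The authors deposited 1 table with raw counts and FPKM per gene and library. FPKM was used as deposited for differences, as log2(FPKM + 1), among genes that reached 1 FPKM in any library, with 1 identifier per gene name, the one with the highest mean FPKM. Folds are ratios of deposited counts over library totals, with exact conditional Clopper-Pearson 95% intervals, tested on simulated data. The intervals cover counting error only. No test between conditions was possible with 1 library each, and no p-value was computed.

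Members, lists and limits were chosen with earlier results of these data known. Members past 1.3-fold, the most abundant of each role and IMP3 were described in full, and from each pathway list the genes with the largest difference either way could be named, with MYC. Alternatives used other pseudocounts, filters, median-ratio and TMM (edgeR 4.0.16) scaling, genes without overlaps and identifiers summed by name. Added after seeing the data were centring on GC bins, leaving out IMP3, adding CIRH1A and the merged exon length. GC content and exons came from GENCODE 29 by Ensembl identifier and promoters from RefSeq (GRCh38.p14). Python 3.11.15 with pandas 2.3.3, numpy 2.4.6 and scipy 1.17.1 was used.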

Additional observations from a re-analysis of the deposited data

How the results depend on the processing

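No paired analysis was possible because each group is 1 library. With a pseudocount of 0.1, and equally of 0.01, 2 members (RRP9 and IMP3) were at least 1.3-fold higher with SFA and 1 (NOP58) at least 1.3-fold lower with SFE. With median-ratio size factors 1 member was 1.3-fold higher and 4 were lower with SFE, and 15 counting intervals lay below 1. With TMM factors 0 members were higher and 1 was lower with SFA, 1 was higher and 4 were lower with SFE, and with SFE 4 intervals lay above 1 and 18 below. Without overlapping genes, and equally without IMP3, 0 members were 2-fold higher and 1 was 1.3-fold higher with SFE. Centred on GC bins, 0 were 1.3-fold higher with SFA and 1 (IMP3) with SFE. Without mitochondrially encoded genes in the total, members took 0.538%, 0.562% and 0.543% of counts with DMSO, SFA and SFE. The cause of these shifts was not tested, though leaving genes out by itself gives smaller denominators and fewer genes. No filter, a filter at 5 FPKM, summed identifiers and the addition of CIRH1A left all counts of members within 1.5 times. Depth limits members such as GAR1, LTV1, UTP3 and MPHOSPH10, whose intervals are widest after IMP3. Median-ratio and TMM factors shifted every gene by −0.03 and −0.06 with SFA and by −0.08 and −0.10 with SFE on the log2 scale. The median difference of members with SFA was below 0 only with TMM factors (−0.02), and with SFE above 0 only with the filter at 5 FPKM (0.00), among the alternatives run.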
